A study of Mus musculus with 6 samples.

Results

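Chemokine genes were described in 6 mouse osteosarcomas as 45 ligand and 22 receptor gene entries, 67 of the 56196 gene entries in the count table. They were chosen by symbol alone: ligands named Ccl, Cxcl, Cx3cl or Xcl and receptors named Ccr, Cxcr, Cx3cr, Xcr or Ackr, each followed by a number and at most 1 letter. The 67 entries carry 62 symbols, because Ccl19, Ccl21a, Ccl21b and Ccl27 are annotated at more than 1 place. The tumours compared were 3 DKO tumours (genotype Osx1-Cre;Rb1lox/lox;p53lox/lox) and 3 TKO tumours (Osx1-Cre;Rb1lox/lox;p53lox/lox;SKP2-/-), to see how transcription differs when SKP2, a subunit of a ubiquitin ligase that targets cell cycle inhibitors, is missing. Every tumour therefore carried the Cre, which Osx1 (Sp7) sequences drive in osteoblast precursors, and the loxP-flanked Rb1 and p53 tumour suppressor genes. Replicate 1 of each group was male and replicates 2 and 3 were female. The labels used here give no ages and do not say whether each sample is a separate animal, so p-values reflect only the variation among these samples. Values of a group are listed in the order of replicates 1, 2 and 3.

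Chemokines are small secreted proteins that direct cell migration, named for the spacing of their first cysteines (CC, CXC, CX3C or C). They bind receptors with several transmembrane helices that signal through G proteins, while atypical receptors (ACKR) bind and clear or redistribute ligands without such signalling. In tumours, inflammatory ligands made by tumour or stromal cells are known for drawing in monocytes and neutrophils, and constitutive ligands such as CXCL12 hold cells in bone marrow.

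Libraries held 17063231 to 22488819 gene counts, and levels are CPM, the usual count unit relative to library size, here with library totals scaled by TMM. The targeted gene Skp2 had 20, 64 and 46 counts in DKO and none in any TKO library. The bone lineage factor Runx2 lay between 58.2 and 241 CPM in all 6 libraries, whereas Sp7 was at 0 CPM in DKO2 and TKO1, at 7.94 and 0.414 CPM in DKO1 and DKO3 and at 206 and 432 CPM in TKO2 and TKO3. TKO1 stood apart, with correlations of log2 CPM across genes of 0.83 to TKO2 and 0.805 to TKO3, against 0.915 between those other libraries. The collagen gene Col1a1 had 208 CPM in TKO1 and at least 9912 CPM in each other library. Markers of several other cell types and tissues were higher in TKO, and their part in the chemokine results was not tested. Of all 15361 genes tested, 4.89% were called higher by edgeR at an adjusted p under 0.05. The number tested is given where not every marker of a list could be tested. Markers with too few counts in every DKO library could enter the test only by being high in TKO. Of 15 macrophage markers 13 were called higher in TKO, with summed levels of 21.4 to 131 CPM in DKO and 1604 to 3955 CPM in TKO, and C1qa, C1qb and C1qc were at 0 in all DKO libraries. Of 6 monocyte markers 5 were tested and 3 called higher (Chil3, F13a1 and Ly6c2). The summed level of all 6 was 436 to 916 CPM in DKO and 74.7 to 429 CPM in TKO. Most of it in DKO came from Vcan, a proteoglycan gene also made by stromal cells. Of 8 neutrophil markers 7 were tested and 4 called higher (1.53 to 6.3 CPM summed in DKO, 21.6 to 232 in TKO), with S100a9, Ngp, Csf3r and Retnlg at 0 in DKO. Of 13 T and NK cell markers only 3 could be tested and 1 was called higher (1.79 to 4.38 CPM summed in DKO, 3.86 to 31.6 in TKO). In DKO 10 of the 13 were at 0, among them Cd3d, Cd8a, Trac and Ncr1. Of 8 endothelial markers 7 were called higher (13.2 to 87.8 CPM summed in DKO, 168 to 857 in TKO), with Emcn at 0 in DKO. Markers of other tissues moved too. All 6 skeletal muscle markers were called higher (3.18 to 7.93 CPM summed in DKO, 308 to 8465 in TKO), as were 4 of 6 pericyte and smooth muscle markers (31.8 to 123 CPM in DKO, 511 to 1712 in TKO). Of 5 red cell markers 4 were tested, and all 4 were called higher (0.496 to 1.27 CPM in DKO, 88.5 to 1163 in TKO). Of 8 B and plasma cell markers 5 were tested and 4 called higher (0.237 to 0.546 CPM in DKO, 120 to 348 in TKO). Of 7 skin and epithelium markers 4 were tested and 3 called higher (0.0992 to 3 CPM in DKO, 15.8 to 574 in TKO, the highest in TKO1). The remaining lists had 0 or 1 call. None was called of 7 fibroblast markers, of 2 tested for mast cells and eosinophils and of 2 tested for adipocytes. Called higher were 1 of 4 tested for osteoclasts, 1 of 6 for osteoblasts and osteocytes, 1 of 3 for dendritic cells and 1 of 2 for lymphatic endothelium. Osteoclast markers summed to 758 to 1843 CPM in DKO and to 40.3, 8649 and 9697 CPM in TKO. In such bulk samples, fewer cells of a type and less RNA per cell cannot be told apart.

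Ligands and receptors differed between the groups in different ways. Of 22 ligand entries that could be tested, 2 were called higher and 2 lower in TKO by edgeR's quasi-likelihood test at an adjusted p under 0.05, where 4.89% of the 15361 genes tested were called higher and 2.47% lower. Of 12 receptors tested, 5 were called higher and 0 lower. At an unadjusted p under 0.05, 7 ligands were higher and 5 lower and 8 receptors were higher and 0 lower, against 14.4% higher and 10.6% lower among all genes. DESeq2 called 7 ligands higher and 4 lower and 8 receptors higher and 0 lower, against 11.6% and 7.22% of all genes. Calls in either direction made up 18.2% of the ligands and 41.7% of the receptors tested, against 7.36% of all genes. The median log2 fold change was 0.54 over the ligands tested, 6.11 over the receptors tested and 0.09 over all genes tested. The sign of the ligand median was not stable: it was below 0 without TKO2 (-0.08), without genes near absent in either group (-0.15) and in the first strand column (-0.00135). The receptor median stayed above 0 but was 0.95 without genes near absent in either group. That left 5 receptors to test and 0 called by edgeR, with 2 at an unadjusted p under 0.05 (2830 of 13246 genes). These shares need care, since a gene entered the test only with about 0.484 CPM or more in at least 3 libraries. Of the 12 receptors, 6 lay under that level in every DKO library, Ccr2, Cx3cr1 and Cxcr4 among them, as did 2 of the 22 ligands (Ccl6 and Cxcl13), so these could enter only by being high in TKO. The groups did not overlap for 12 ligands, 7 with TKO above and 5 with TKO below, and for 7 receptors, all with TKO above; among all genes 17.3% had TKO above and 15.6% had TKO below. All 9 calls were lost when DKO1, DKO2 or DKO3 was left out, with 0 members called in each case, although all 9 kept their sign. Calls fell over all genes too, from 1131 to 39, 2 and 0 without DKO1, DKO2 and DKO3, so this loss was not particular to chemokine genes. Without TKO1, all 9 were called again together with 10 further members, while the calls over all genes rose to 2385.

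Promoter windows are shown for 6 members: Cxcl1, Cxcl2 and Cxcl10, ligand genes of chromosome 5 of which only Cxcl1 was called lower in TKO, and Ccl6, Ccr1 and Ccr2, which were called higher. Cxcl2 and Cxcl10 were added after their values were seen. Each runs from 250 bases before to 50 bases after the RefSeq start of the gene (GRCm38.p6), 5′ to 3′ on the gene's strand. The windows lie at chr5:90890995-90891294 (plus strand) for Cxcl1, chr5:90903649-90903948 (plus) for Cxcl2, chr5:92348840-92349139 (minus) for Cxcl10, chr11:83593038-83593337 (minus) for Ccl6, chr9:123968643-123968942 (minus) for Ccr1 and chr9:124101933-124102232 (plus) for Ccr2. Capitals mark letters that match an NF-kappaB type motif, GGG followed by any 3 bases and TTCC, on either strand, where overlapping matches merge into 1 run.
Cxcl1: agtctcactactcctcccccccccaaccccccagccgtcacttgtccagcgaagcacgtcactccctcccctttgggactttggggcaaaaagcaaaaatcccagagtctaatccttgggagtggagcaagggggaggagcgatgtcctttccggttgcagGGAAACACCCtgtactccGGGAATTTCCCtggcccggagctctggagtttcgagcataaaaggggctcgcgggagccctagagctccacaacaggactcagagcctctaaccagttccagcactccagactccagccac
Cxcl2: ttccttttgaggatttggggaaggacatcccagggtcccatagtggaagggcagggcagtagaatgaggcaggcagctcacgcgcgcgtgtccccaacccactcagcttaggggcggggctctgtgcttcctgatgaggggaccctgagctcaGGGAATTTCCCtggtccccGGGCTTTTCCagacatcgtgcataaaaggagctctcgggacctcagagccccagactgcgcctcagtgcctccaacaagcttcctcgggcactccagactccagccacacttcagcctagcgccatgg
Cxcl10: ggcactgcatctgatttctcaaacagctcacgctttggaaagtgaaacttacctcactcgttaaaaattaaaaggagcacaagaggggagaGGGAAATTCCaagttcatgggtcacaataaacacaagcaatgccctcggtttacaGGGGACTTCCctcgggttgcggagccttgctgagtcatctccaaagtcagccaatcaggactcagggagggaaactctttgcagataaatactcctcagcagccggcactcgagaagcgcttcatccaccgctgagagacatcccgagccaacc
Ccl6: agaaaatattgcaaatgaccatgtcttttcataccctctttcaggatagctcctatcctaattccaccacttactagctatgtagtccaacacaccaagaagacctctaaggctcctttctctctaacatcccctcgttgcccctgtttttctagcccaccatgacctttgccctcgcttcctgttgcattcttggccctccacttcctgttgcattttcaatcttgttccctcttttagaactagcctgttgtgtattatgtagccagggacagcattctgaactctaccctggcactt
Ccr1: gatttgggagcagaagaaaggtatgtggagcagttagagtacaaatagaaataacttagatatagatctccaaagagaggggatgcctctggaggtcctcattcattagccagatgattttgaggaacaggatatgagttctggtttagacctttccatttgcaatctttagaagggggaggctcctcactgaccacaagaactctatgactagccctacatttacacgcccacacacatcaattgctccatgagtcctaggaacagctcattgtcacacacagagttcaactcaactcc
Ccr2: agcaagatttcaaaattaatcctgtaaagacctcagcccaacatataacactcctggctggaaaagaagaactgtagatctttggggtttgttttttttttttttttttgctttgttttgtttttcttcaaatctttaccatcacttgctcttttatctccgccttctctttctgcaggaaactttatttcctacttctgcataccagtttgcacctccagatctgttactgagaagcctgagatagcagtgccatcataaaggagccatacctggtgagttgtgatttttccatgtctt
Cxcl1 held this motif 89 to 80 bases before its start on the opposite strand and again from 71 bases before it, where matches on both strands overlap. Cxcl2 held a like pair, from 97 and from 78 bases before its start, and Cxcl10 held it from 159 and from 104 bases before its start. The windows of Ccl6, Ccr1 and Ccr2 do not contain these letters. Other members whose windows hold the motif are Ccl9, for which all TKO values lay above all DKO values, Cxcl3 and Ccr3, whose means were higher in TKO, and Ccl1, Ccl20 and Ccr6, which were too low to be tested. The motif was thus found both in members with higher and in members with lower TKO levels. Windows were found for 45 of the 62 member symbols, and 9 of their 52 windows held the motif, against 5.56% of 32851 windows of all genes. Ccl2, Ccl7 and Cxcl5, which had low TKO values, were among the symbols without a window, so whether they hold the motif was not examined. A PU.1 type motif, GAGGAAGT on either strand, was in 1 of the 52 windows (Cxcr3) and in 3.2% of all windows. Such matches describe letters and were not tested as binding sites.

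**Figure D1:**
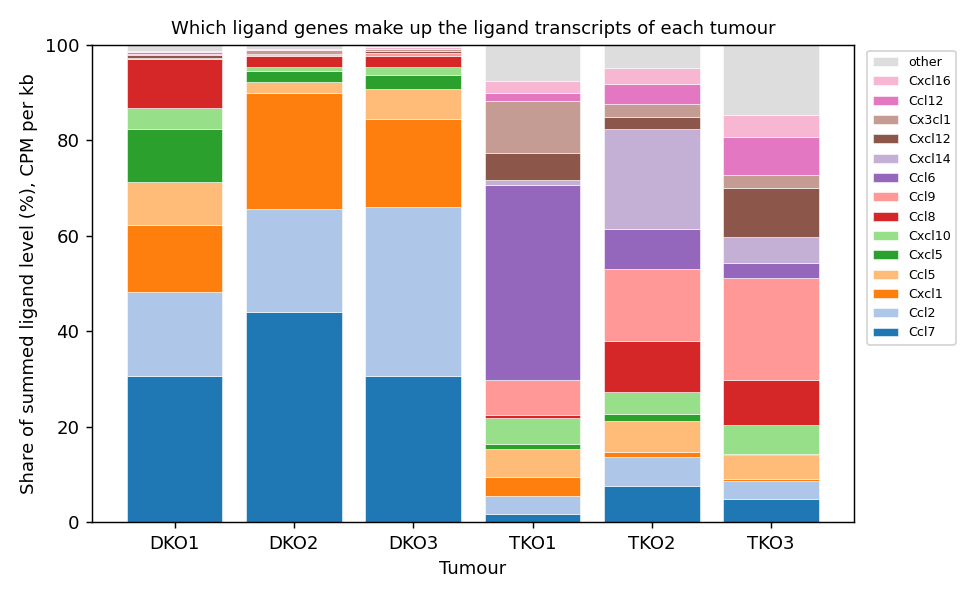
Stacked bars give, for each tumour (x axis), the share in percent (y axis) that single ligand genes made up of the summed ligand level in CPM per kb of exon. In DKO tumours Ccl7, Ccl2, Cxcl1 and Ccl5 together filled 71.2 to 92.2% of the bar, and in TKO tumours 14.2 to 21.2%.

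The make-up of the ligand transcripts differed between the groups. Compared per length, as CPM per kb of annotated exon, the 4 ligands with the highest mean in DKO were Ccl7, Ccl2, Cxcl1 and Ccl5. They made up 71.2, 92.2 and 90.8% of the summed ligand level in DKO, and 15.3, 21.2 and 14.2% in TKO. The 4 with the highest mean in TKO were Ccl9, Ccl6, Cxcl14 and Ccl8, which made up 49.8, 54.9 and 39.3% in TKO and 10.4, 2.58 and 3.04% in DKO. These genes were picked by these levels, so the shares are a description. The leading ligand differed among the TKO tumours. Ccl6 made up 40.9, 8.46 and 3.19% of the TKO sums, Cxcl14 1.03, 20.8 and 5.34%, and Ccl9 7.21, 15 and 21.4%. Ccl8 made up 0.671, 10.7 and 9.35% in TKO and 10.3, 2.32 and 2.39% in DKO. Its mean level was higher in DKO (49.6 CPM per kb) than in TKO (29.7 CPM per kb). The summed level of all ligands was 834, 1526 and 1155 CPM per kb in DKO and 218, 646 and 202 CPM per kb in TKO, so every TKO tumour lay below every DKO tumour. The receptors went the other way, with 20.2, 7.35 and 7.7 CPM per kb in DKO and 77.4, 128 and 83.7 CPM per kb in TKO.

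**Figure D2:**
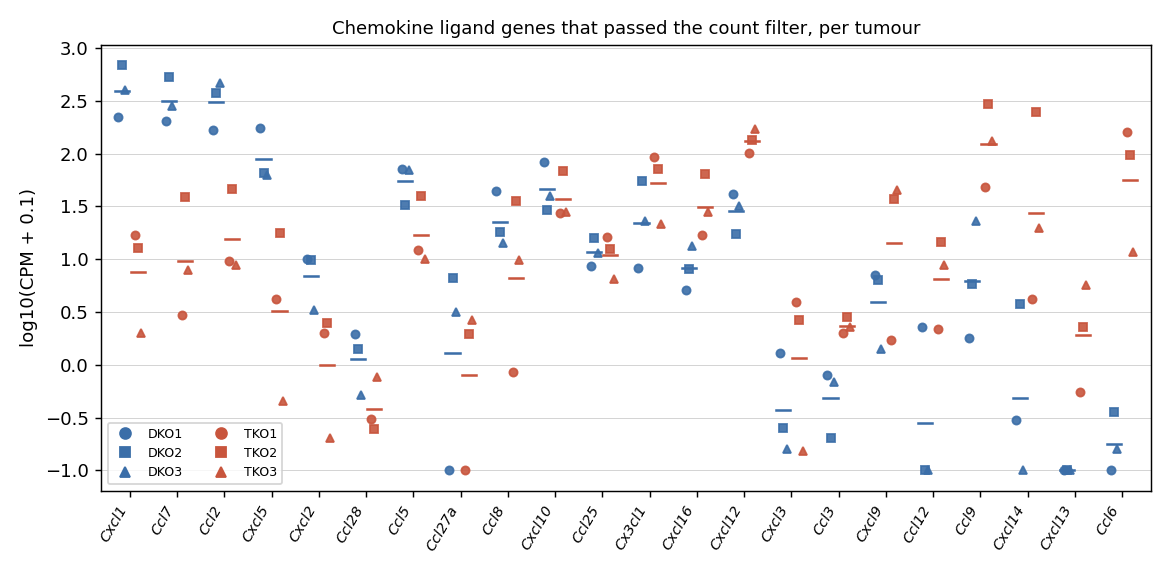
Each point is the level of 1 ligand gene in 1 tumour as log10(CPM + 0.1) (y axis), for the 22 ligand genes tested (x axis, ordered by fitted fold change), with the horizontal bar at the mean of the 3 tumours of a group. The 4 leftmost genes, Cxcl1, Ccl7, Ccl2 and Cxcl5, show all DKO points above all TKO points, and Ccl6 at the right shows the opposite.

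Ligands of CCR2 call monocytes out of the marrow. Of the ligand genes grouped here around CCR2, Ccl2 was called lower in TKO and Ccl7 lay lower without being called. Ccl8 and Ccl12 overlapped between the groups. Ccl2 (chromosome 11, 82035571 to 82037453, GRCm38), the main monocyte attractant, had 166, 378 and 467 CPM in DKO and 9.51, 45.7 and 8.69 CPM in TKO. All TKO values lay below all DKO values, and Ccl2 fell 15.8-fold in TKO (336.8 ± 154.6 to 21.3 ± 21.1 CPM; mean ± SD, n = 3 each; log2 fold change -3.98, SE 0.82, adjusted p = 0.0362 by edgeR). The call was lost without DKO1 (0.0841), DKO2 (0.119), DKO3 (0.12) or TKO3 (0.0842), and the fall was 36.7-fold without TKO2. Its neighbour Ccl7 (82045712 to 82047525), a monocyte attractant of the same family, had 205, 537 and 282 CPM in DKO and 2.87, 38.7 and 7.77 CPM in TKO. The groups were as far apart as for Ccl2, but Ccl7 narrowly missed the threshold (log2 fold change -4.37, SE 1.03, adjusted p = 0.0512 by edgeR). It passed without TKO1 (0.0334) or TKO2 (0.031), and in all libraries by limma-voom (0.0199) and DESeq2 (2.04e-05). By edgeR it did not pass without DKO1 (0.112), DKO2 (0.15), DKO3 (0.13) or TKO3 (0.122).

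Not every gene of this stretch of chromosome 11 had low TKO values. Ccl8, a further gene of the monocyte attractant family, had 43.8, 18.1 and 14.1 CPM in DKO and 0.748, 35.2 and 9.65 CPM in TKO, so the groups overlapped (adjusted p = 0.728 by edgeR). Ccl12, a mouse CCR2 ligand, had 2.18, 0 and 0 CPM in DKO and 2.08, 14.3 and 8.64 CPM in TKO, with DKO1 above TKO1 (log2 fold change 3.50, SE 1.78, adjusted p = 0.275 by edgeR). Ccl11, an eosinophil attractant that binds CCR3, was too low to be tested, with 3 to 4 counts in each DKO library and 12, 107 and 8 counts in TKO. Ccl1, a ligand of CCR8, had 3 counts, all in TKO3. Within this stretch, all TKO values lay below all DKO values only for Ccl2 and Ccl7.

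The receptor gene of Ccl2 and Ccl7, Ccr2 (chromosome 9, 124101950 to 124113557), which marks monocytes, had 0 counts in all DKO libraries and 14.9, 51.7 and 13.4 CPM in TKO. It was at least 497-fold higher in TKO, against a floor of 3 counts over the DKO group (adjusted p = 0.0185 by edgeR). The call was lost without DKO1 (0.0636), DKO2 (0.0703) or DKO3 (0.0626). Ccl2 and Ccl7 were thus highest in the group without Ccr2 counts.

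The neutrophil-attracting CXC ligands, which carry the tripeptide ELR and bind CXCR2, were also mostly low in TKO. Cxcl1 (chromosome 5, 90891241 to 90893115), whose promoter is shown above, had 220, 693 and 398 CPM in DKO and 16.7, 12.6 and 1.88 CPM in TKO. The lowest DKO value was above 10 times the highest TKO value, and Cxcl1 fell 42-fold (437.3 ± 239 to 10.4 ± 7.65 CPM; mean ± SD, n = 3 each; log2 fold change -5.39, SE 0.92, adjusted p = 0.0252 by edgeR). That call was lost without DKO1 (0.0713), DKO2 (0.0886), DKO3 (0.0889) or TKO2 (0.0688). Cxcl5 had 173, 66.1 and 62.6 CPM in DKO and 4.11, 17.7 and 0.356 CPM in TKO. Its groups did not overlap, but it did not pass (log2 fold change -3.77, SE 1.22, adjusted p = 0.116 by edgeR). The adjusted p of Cxcl5 was 0.004 by DESeq2 and 0.0533 by limma-voom. Cxcl2, the neighbour of Cxcl1 that also holds a pair of motif matches, had 9.92, 9.83 and 3.19 CPM in DKO and 1.91, 2.4 and 0.102 CPM in TKO (adjusted p = 0.218 by edgeR). Cxcl3, of the same cluster, went its own way, with 1.19, 0.153 and 0.0592 CPM in DKO and 3.86, 2.55 and 0.0508 CPM in TKO. Its groups overlapped because TKO3 was as low as DKO3 (adjusted p = 0.406 by edgeR). TKO3 had the lowest level of all 6 libraries for Cxcl1, Cxcl2 and Cxcl5, and for Cxcl3 it and DKO3 held 1 count each.

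Their receptor gene Cxcr2, found on neutrophils, had 0 counts in DKO and 23, 173 and 20 counts (0.955, 8.31 and 1.02 CPM) in TKO. It was at least 63.2-fold higher in TKO but missed the threshold (adjusted p = 0.0602 by edgeR), and passed without TKO1 (0.0392) and by limma-voom (0.0305) and DESeq2 (1.58e-05). By edgeR it did not pass without TKO2 (0.0817) or TKO3 (0.087). Cxcr1 had 1 count, in TKO3, and Cxcl15 had 0 counts in all 6 libraries.

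Other inflammatory CC ligands split. Ccl6 (chromosome 11, 83587882 to 83593087), a rodent CCR1 ligand of myeloid cells, had 0, 0.255 and 0.0592 CPM (0, 5 and 1 counts) in DKO and 160, 98.1 and 11.6 CPM in TKO. It rose 805-fold, with the highest level in TKO1 (log2 fold change 9.65, SE 1.43, adjusted p = 0.0185 by edgeR). The call was lost without DKO1 (0.0761), DKO2 (0.0746) or DKO3 (0.0923) and by limma-voom (0.0653). With 5 of the 6 DKO counts in DKO2, the fold was 2656 without that library, 535 without DKO1 and 489 without TKO1. Its neighbour Ccl9, which also binds CCR1, had 1.69, 5.7 and 23 CPM in DKO and 47.8, 294 and 132 CPM in TKO. All TKO values lay above all DKO values, but the spread was wide and Ccl9 did not pass (log2 fold change 3.97, SE 1.10, adjusted p = 0.0782 by edgeR). The adjusted p was 0.0398 by edgeR without TKO1, and with all libraries 0.000477 by DESeq2 and 0.0604 by limma-voom.

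The further inflammatory ligands of this stretch were low throughout or lay the other way. Ccl3 had 0.695, 0.102 and 0.592 CPM in DKO and 1.91, 2.74 and 2.18 CPM in TKO, without overlap (log2 fold change 2.29, SE 0.77, adjusted p = 0.123 by edgeR). Ccl4, beside it, was not tested: it had 1 count in DKO and 10, 37 and 41 counts in TKO, a ratio of 77.3 with an exact 95% counting interval of 13.5 to 3086. Ccl5, which draws T cells and monocytes and lies in the same cluster, had 72, 32.6 and 70.4 CPM in DKO and 12, 39.9 and 9.86 CPM in TKO. Here TKO2 was above DKO2 and the other TKO libraries were below all DKO libraries (log2 fold change -1.50, SE 0.62, adjusted p = 0.195 by edgeR). Of the eotaxins that bind CCR3, Ccl24 had 15 counts in TKO and 0 in DKO, at least 4.39-fold more, and Ccl26 had 0 counts in all 6 libraries.

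**Figure D3:**
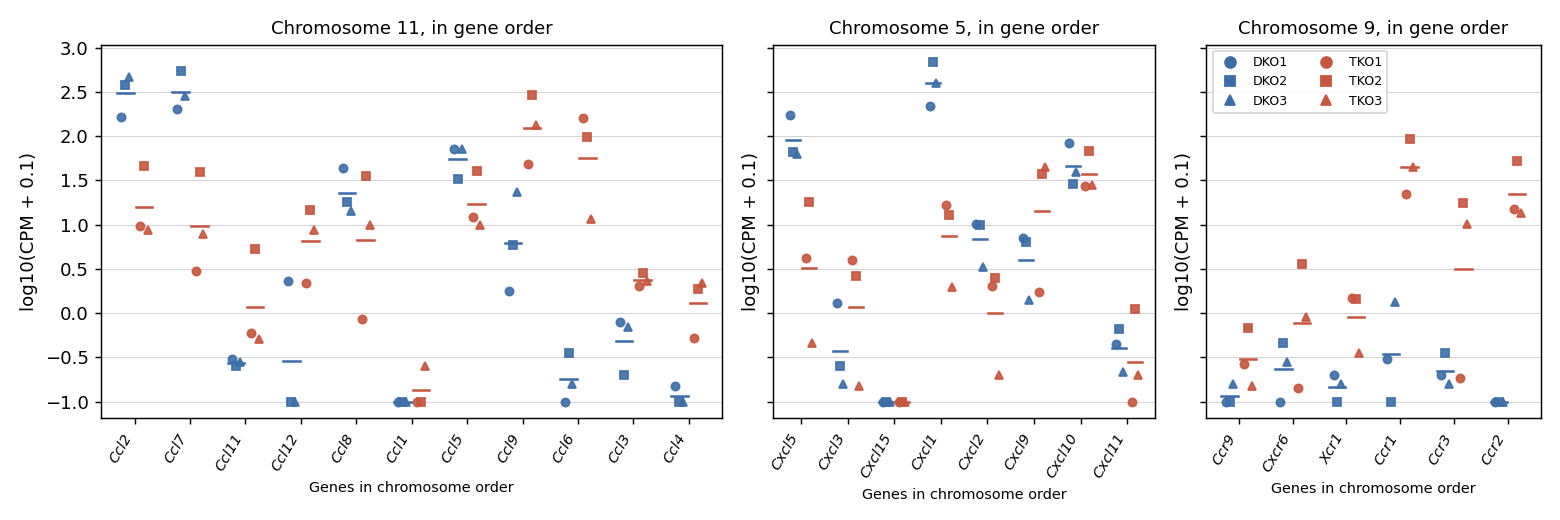
Levels as log10(CPM + 0.1) (y axis) for members in gene order (x axis, not to scale) in clusters of chromosomes 11, 5 and 9, with 1 point per tumour and bars at the group means. On chromosome 11 the DKO points are higher at Ccl2 and Ccl7 and the TKO points are higher at Ccl9 and Ccl6; on chromosome 9 the TKO points of Ccr1 and Ccr2 lie above all DKO points.

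A receptor gene of Ccl6 and Ccl9 also rose in TKO. Ccr1 (chromosome 9, 123962124 to 123968692), found on monocytes, macrophages and neutrophils, had 0.198, 0 and 1.24 CPM in DKO and 22.2, 92.3 and 44.7 CPM in TKO. It rose 112-fold (log2 fold change 6.81, SE 1.35, adjusted p = 0.0337 by edgeR), a call lost without any 1 DKO library (0.123, 0.0877 and 0.0641 in order), without TKO2 (0.0834) and without TKO3 (0.068). The fold was 500.4 without DKO3, which held 21 of the 25 DKO counts, 72.9 without DKO2 and 70.5 without TKO2. Within TKO, Ccr1 and Ccr2 were both highest in TKO2.

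Ccr3, the eosinophil and mast cell receptor of the same cluster, was not tested because only 2 libraries reached the count needed. It had 0.0992, 0.255 and 0.0592 CPM in DKO and 0.0831, 17.3 and 10.1 CPM in TKO, so TKO1 was at the level of DKO. Without TKO1 it was tested and called.

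CXCL12, made by marrow stroma and vessels, and its receptor CXCR4 both rose. Cxcl12 (chromosome 6, 117168535 to 117181367) had 41.2, 17.2 and 32.1 CPM in DKO and 102, 135 and 170 CPM in TKO. The TKO values were close to each other and all above DKO, a 4.5-fold rise (30.2 ± 12.1 to 135.9 ± 34 CPM; mean ± SD, n = 3 each; log2 fold change 2.17, SE 0.40, adjusted p = 0.0291 by edgeR). This was lost without any 1 DKO library (0.0777, 0.0967 and 0.117 in order), without TKO2 (0.0672) and without TKO3 (0.0705). Cxcr4 (chromosome 1, 128588199 to 128592293), found on leukocytes, on vessels and on many tumour cells, had 4, 8 and 1 counts in DKO. These were 0.198, 0.407 and 0.0592 CPM, against 65.1, 56.4 and 23.4 CPM in TKO. It rose 209-fold (log2 fold change 7.71, SE 0.79, adjusted p = 0.0111 by edgeR), and the call was lost without DKO1 (0.0593), DKO2 (0.0575) or DKO3 (0.0556). The fold was 345 without DKO2. Cxcr4 was highest in TKO1. There the pan-leukocyte gene Ptprc was lowest in TKO, at 20.8 CPM against 94.7 and 88 CPM in TKO2 and TKO3. Ccl6, a ligand of myeloid cells, was also highest in TKO1, at 160 CPM. Which cells the Cxcr4 reads came from was not tested. Per length, Cxcr4 was the most abundant receptor gene in TKO, with a mean of 26.7 CPM per kb, ahead of Ccr1 (18.7), Ackr3 (15.3) and Cx3cr1 (11.8). The ranges of these 4 over the TKO tumours overlapped, so their order is not firm.

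Ackr3, which scavenges CXCL12, was the receptor gene with the highest level in DKO and its groups overlapped. It had 57.5, 14.1 and 9.35 CPM in DKO and 75.5, 57 and 21.2 CPM in TKO (log2 fold change 0.93, SE 0.78, adjusted p = 0.499 by edgeR). In DKO it had a mean of 8.05 CPM per kb, against 1.43 for Ackr1, the next receptor.

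**Figure D4:**
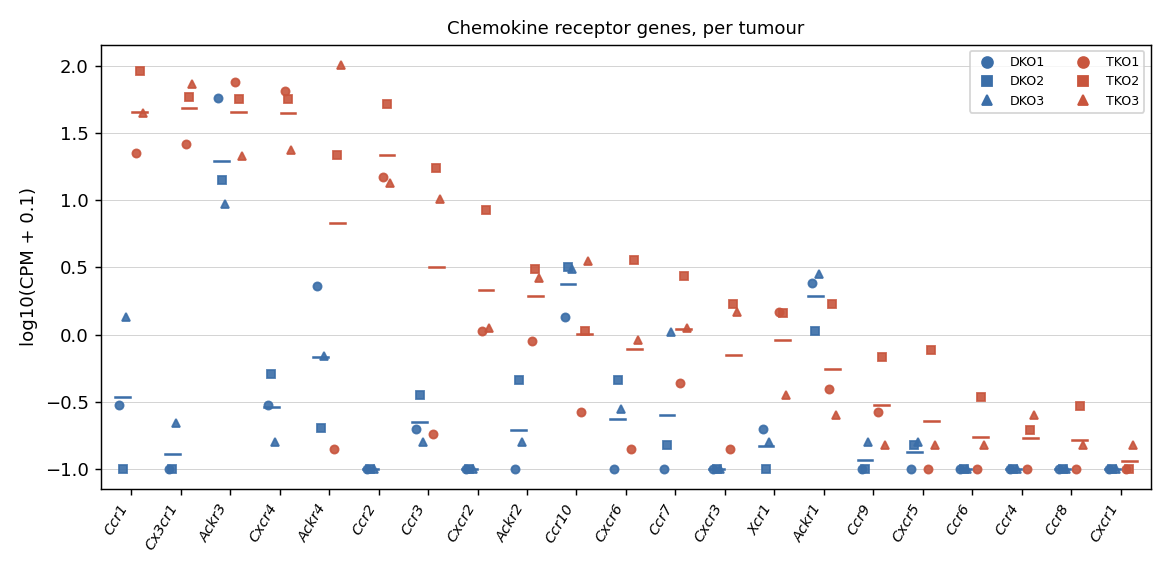
Each point is the level of 1 receptor gene in 1 tumour as log10(CPM + 0.1) (y axis), for receptor genes (x axis, ordered by TKO mean), with bars at the group means. DKO points of Ccr2, Cxcr2, Cxcr3, Ccr4, Ccr6, Ccr8 and Cxcr1 all lie at the bottom, where the count is 0, and Ackr3 is the gene with the highest DKO points.

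Of the transmembrane chemokines, which are anchored on cells and can be shed, neither was called, while 1 receptor was. Cx3cl1 had 8.24, 54.8 and 22.9 CPM in DKO and 92.6, 71.9 and 21.6 CPM in TKO, with overlap (adjusted p = 0.416 by edgeR). Its receptor Cx3cr1 (chromosome 9, 119901616 to 120069879), a gene of monocytes and tissue macrophages, had 2 counts in DKO, both in DKO3, and 26.1, 59.1 and 73.7 CPM in TKO. The ratio was 1452, with an exact 95% counting interval of 402 to 11997 (adjusted p = 0.0111 by edgeR), and the call was lost without DKO1 (0.0581), DKO2 (0.0583) or DKO3 (0.0548). Cxcl16, which also serves as a scavenger receptor, had 5.06, 7.94 and 13.3 CPM in DKO and 16.9, 63.4 and 28.2 CPM in TKO. The groups did not overlap, and it did not pass (log2 fold change 2.04, SE 0.61, adjusted p = 0.0942 by edgeR). The adjusted p of Cxcl16 was 0.0345 by edgeR without TKO1, and with all libraries 0.0106 by DESeq2 and 0.13 by limma-voom. Reads in the 18.3% of its exon length that lies opposite exons of Zmynd15 count to neither gene. Its receptor Cxcr6, of T and NK cells, was not tested, with 0, 7 and 3 counts in DKO and 1, 73 and 16 counts in TKO.

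The interferon-induced ligands of CXCR3, which draw activated T cells, were not called. Cxcl10, with the promoter shown above, had 83.3, 29 and 39.5 CPM in DKO and 27.1, 68.1 and 27.7 CPM in TKO, with overlap (log2 fold change -0.30, SE 0.54, adjusted p = 0.769 by edgeR). Cxcl9 had 7, 6.21 and 1.3 CPM in DKO and 1.62, 37.3 and 44.8 CPM in TKO, so TKO1 lay within DKO (log2 fold change 2.52, SE 1.15, adjusted p = 0.228 by edgeR). The adjusted p of Cxcl9 was 0.0325 by edgeR without TKO1, and with all libraries 0.072 by DESeq2 and 0.558 by limma-voom. Cxcl11, annotated as a polymorphic pseudogene, had 20 counts in DKO and 23 in TKO, and 41.7% of its exon length lies opposite a pseudogene. Cxcr3 was not tested. It had 0 counts in DKO and 1, 33 and 27 counts in TKO, at least 17.9-fold more in TKO.

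Cxcl14, a constitutive ligand of epithelia and fibroblasts, was uneven among the TKO tumours. It had 0.198, 3.67 and 0 CPM in DKO and 4.11, 246 and 19.7 CPM in TKO, and TKO1 was barely above DKO2 (log2 fold change 6.11, SE 2.11, adjusted p = 0.133 by edgeR). The adjusted p was 0.0351 by DESeq2 and 0.246 by limma-voom. Cxcl17 had 1 count in TKO and 2 in DKO.

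The chemokines and receptors of lymphoid tissue were low. Cxcl13, the B cell attractant, had 0 counts in DKO and 11, 45 and 111 counts (0.457, 2.16 and 5.64 CPM) in TKO. It was at least 48.9-fold higher in TKO (adjusted p = 0.0551 by edgeR). By edgeR the adjusted p was 0.0229 without TKO1 and 0.101 without TKO3. With all libraries it was 0.0348 by limma-voom and 2.8e-05 by DESeq2. The receptor gene of CXCL13, Cxcr5, had 2 counts in DKO and 15 in TKO. Ccr7, of dendritic and T cells, had 0, 1 and 16 counts in DKO and 8, 55 and 20 counts in TKO, and the groups overlapped (adjusted p = 0.433 by edgeR). Its ligand genes Ccl19, Ccl21a, Ccl21b and Ccl21c had 0 counts in all 6 libraries. They are annotated in several copies, and reads that match several places are not counted, so these counts of 0 do not bound their levels.

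Ligands and receptors of T cell subsets, gut and skin were mostly near the floor. Ccl25, a gut and thymus ligand, had 8.58, 15.9 and 11.3 CPM in DKO and 16.1, 12.4 and 6.4 CPM in TKO, with a log2 fold change of -0.04 (SE 0.48, adjusted p = 0.967 by edgeR). Ccl27a, a skin ligand, was at 0 in DKO1 and TKO1 and at 6.57, 3.08, 1.87 and 2.54 CPM in DKO2, DKO3, TKO2 and TKO3 (adjusted p = 0.742 by edgeR). It too has near-identical copies. Ccl28, a mucosal ligand, had 1.84, 1.32 and 0.414 CPM in DKO and 0.208, 0.144 and 0.66 CPM in TKO (adjusted p = 0.242 by edgeR). Ccr10, the shared receptor gene of Ccl27a and Ccl28, had 1.24, 3.1 and 2.96 CPM in DKO and 0.166, 0.961 and 3.45 CPM in TKO (adjusted p = 0.724 by edgeR). Of the CCR4 ligands, Ccl22 had 0 counts in DKO and 18, 25 and 7 counts in TKO, at least 14.6-fold more, and Ccl17 had 6 counts in DKO and 88, 8 and 4 counts in TKO. Xcr1, a receptor of cross-presenting dendritic cells, had 3 counts in DKO and 33, 28 and 5 counts in TKO, a ratio of 19.3 with an exact 95% counting interval of 6.33 to 96.1. Its ligand gene Xcl1 had 7 counts, all in TKO. Ccl20 had 25 counts in DKO and 18 in TKO, while Ccr4, Ccr6 and Ccr8 had 0 counts in DKO and 5 to 6 in TKO, and Ccr9 had 1 and 17.

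The atypical receptors other than Ackr3 were not called. Ackr4, which clears CCL19, CCL21 and CCL25, had 2.18, 0.102 and 0.592 CPM in DKO and 0.0415, 21.6 and 102 CPM in TKO. TKO1 had the lowest value of all and TKO3 the highest, and the fold change had a wide error (log2 5.41, SE 2.10, adjusted p = 0.171 by edgeR). The adjusted p was 0.026 by edgeR without TKO1, and with all libraries 0.00516 by DESeq2 and 0.633 by limma-voom. The log2 fold change was 3.49 without TKO3, 2.99 by limma-voom, and 2.86 and 2.76 in the separate strand columns, and 8.9% of its exon length lies opposite exons of Acad11. Ackr2, which clears inflammatory CC ligands, had 0, 7 and 1 counts in DKO and 19, 62 and 50 counts in TKO, without overlap (log2 fold change 3.85, SE 1.20, adjusted p = 0.105 by edgeR). The adjusted p of Ackr2 was 0.0102 by DESeq2 and 0.0716 by limma-voom. Ackr1, the Duffy receptor of red cells and venules, had 2.33, 0.967 and 2.72 CPM in DKO and 0.291, 1.59 and 0.152 CPM in TKO (adjusted p = 0.359 by edgeR). It shares 25.7% of its exon length with Cadm3, so part of its reads may not be counted.

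**Figure D5:**
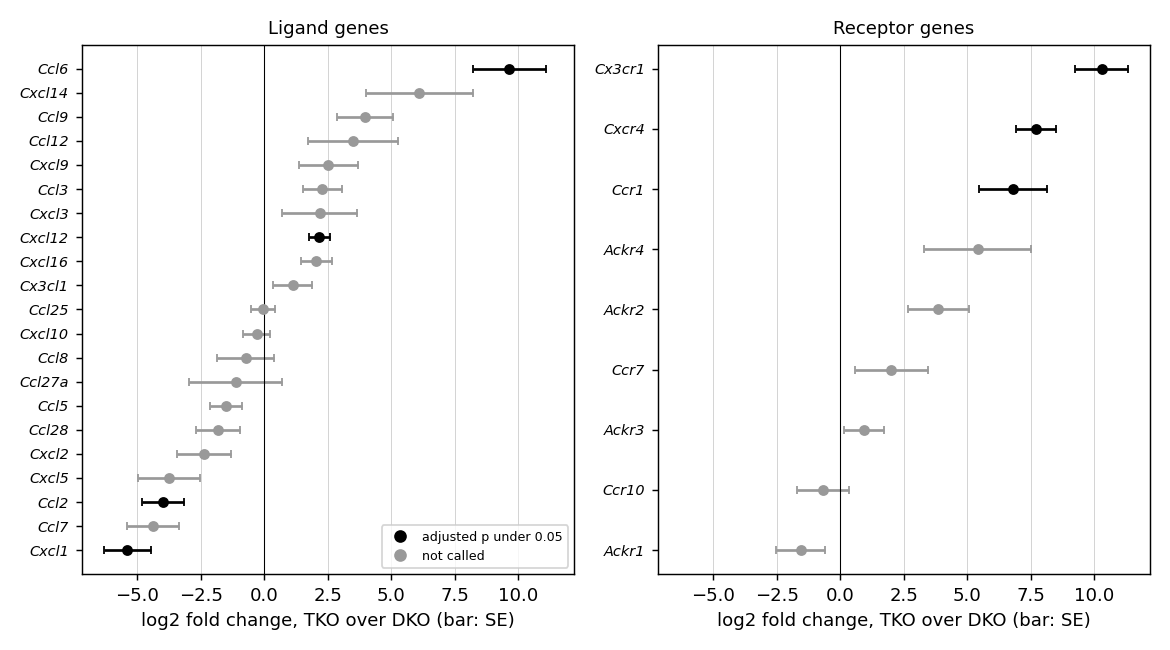
Fitted log2 fold changes of TKO over DKO (x axis, bars are SE, 3 tumours a group) for ligand genes (left) and receptor genes (right) among those tested; black points had an adjusted p under 0.05. Cxcl13, Ccr2 and Cxcr2, with 0 counts in DKO, are not drawn because their fitted folds depend on the prior count.

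Other genes of the pathway were counted from lists chosen by role. Among 7 tested chemokine family genes with other names, 1 rose and 1 fell by edgeR, where 4.89% and 2.47% of all genes did. At an unadjusted p under 0.05, 4 rose and 1 fell (14.4% and 10.6% of all genes), and DESeq2 called 3 and 1 (11.6% and 7.22%). Pf4, the platelet chemokine CXCL4 that macrophages also express, had 0, 0.0509 and 0 CPM in DKO and 21.9, 29.9 and 10 CPM in TKO (adjusted p = 0.0111 by edgeR). With such DKO levels, Pf4 could enter the test only by being high in TKO. Mif, a cytokine that also binds CXCR2 and CXCR4, fell from 537, 453 and 712 CPM in DKO to 246, 183 and 126 CPM in TKO (log2 fold change -1.62, SE 0.36, adjusted p = 0.0448 by edgeR). Cmklr1, the chemerin receptor, and Ppbp, the platelet ligand CXCL7, did not pass (adjusted p = 0.0535 and 0.131 by edgeR).

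Among 31 tested genes of chemokine receptor signalling, 12 rose and 0 fell by edgeR, and the median log2 fold change was 1.90. Of all genes tested 4.89% rose and 2.47% fell by this rule. At an unadjusted p under 0.05 these counts were 19 and 0 (14.4% and 10.6% of all genes), and DESeq2 called 16 and 0 (11.6% and 7.22% of all genes). Most of those that rose are leukocyte genes, among them the kinase subunit Pik3cg, the GTPase Rac2, the integrin chain Itgal and the phospholipase Plcb2. Rac2 had 0, 0.102 and 0 CPM in DKO and 18.5, 101 and 109 CPM in TKO (adjusted p = 0.0123 by edgeR). Rac2 lay under the filter level of about 0.484 CPM in every DKO library, so it could enter the test only by being high in TKO. How many others of this list did so was not counted, so its share needs the same care as that of the receptors. Grk2, a kinase that desensitises these receptors and is widely expressed, went from 71.6, 68.9 and 67.9 CPM in DKO to 181, 133 and 145 CPM in TKO (log2 fold change 1.14, SE 0.24, adjusted p = 0.0393 by edgeR).

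Among 23 tested inducers and regulators of chemokine transcription, 0 rose and 3 fell, and the median log2 fold change was -0.87. At an unadjusted p under 0.05 edgeR had 2 higher and 11 lower, while DESeq2 called 1 higher and 7 lower. The matching shares of all genes that were lower are 2.47% by edgeR, 10.6% at an unadjusted p and 7.22% by DESeq2. The shares that were higher are 4.89%, 14.4% and 11.6% in the same order. Nfkbiz, an NF-kappaB cofactor, had 211, 169 and 205 CPM in DKO and 31.3, 30.3 and 17.9 CPM in TKO (log2 fold change -2.87, SE 0.32, adjusted p = 0.0118 by edgeR). Zc3h12a, an RNase that degrades inflammatory transcripts, had 107, 89.9 and 78.7 CPM in DKO and 21.4, 16.3 and 15.8 CPM in TKO (adjusted p = 0.0125 by edgeR). Relb, an NF-kappaB subunit, was the other gene that fell (adjusted p = 0.0412 by edgeR). Il6, an inflammatory cytokine gene, had 17.8, 52.4 and 37 CPM in DKO and 0.208, 5.62 and 1.52 CPM in TKO but did not pass (adjusted p = 0.0828 by edgeR). Il1b had 0, 0.255 and 0 CPM in DKO and 1.87, 12.3 and 2.29 CPM in TKO (adjusted p = 0.0681 by edgeR). Among 17 tested genes that process or present chemokines, 0 were called by edgeR, and the median log2 fold change was 0.10. At an unadjusted p under 0.05, 2 were higher and 1 lower, as many as DESeq2 called, and limma-voom called 0. Of all genes, 14.4% were higher and 10.6% lower at that unadjusted p. The heparan sulphate carriers Gpc1 and Sdc2 came closest, with log2 fold changes of 1.78 (SE 0.47, adjusted p = 0.0666 by edgeR) and -1.79 (SE 0.48, adjusted p = 0.0697 by edgeR).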

How the data were processed

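RNA from roughly 100 mg of tumour was depleted of rRNA, selected with oligo(dT) and read on an Illumina machine (HiSeq), as the protocols in the labels state. The authors deposited raw counts of reads per gene; STAR 2.6.1 and mm10 are named per the submitters' processing notes, while no source used here names the annotation release. The series table was used; its values equalled those of the library files (0 differences). Lines for unassigned reads (unmapped 2.53 to 3.2%, several places 3.94 to 4.7%, no gene 5.33 to 9.3%, more than 1 gene 5.1 to 6.53%) were left out. The first strand column held 50.2 to 51.3% of stranded counts, so antisense genes cannot be told apart. Through GENCODE M21 (GRCm38, as mm10), 55240 of 56196 IDs matched a symbol.

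Genes kept by filterByExpr (minimum count 10) numbered 15361. DKO and TKO, 3 samples each, were compared with the quasi-likelihood test of edgeR (4.0.16, in R 4.3.3; robust fit, TMM factors), Benjamini-Hochberg adjustment over all genes and a threshold of 0.05; limma 3.58.1 and DESeq2 1.42.0 were alternatives. Adjusted p-values are edgeR's unless another tool is named, and each SE is the log2 fold divided by the root of F. Exon length is the union of annotated exons. A fold against 0 counts used 3 counts over the group; intervals and floors cover counting error only. The test was tried on simulated data. Members with full values were those called, the 8 ligands and 6 receptors with the highest mean CPM, and tested members of ligand-receptor groups. Of each pathway list, members called or with small p were named. The values of 1 member are not reported here, though counts include it. Members and lists were chosen with earlier results of these data known.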

Additional observations from a re-analysis of the deposited data

How the results depend on the processing

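All 9 called members kept their sign under every alternative that tested them. RLE factors, plain library totals and the first strand column changed no call among members with a main test that they could test, and the second strand column added Ccl7. DESeq2 called 2893 genes, 11 ligands and 8 receptors, against 1131, 4 and 5 in edgeR. With sex as a covariate 7 ligands were called. When genes under 1 CPM in every library of either group were left out, 158 genes, 0 ligands and 0 receptors were called by edgeR. Only 4 of the 9 called members could then be tested. In that setting 8 ligands and 2 receptors had an unadjusted p under 0.05, as had 2830 of all 13246 genes tested. With no low-count filter Ccl6 and Ccr1 were lost and Ccl4, Ccl22, Cxcl13 and Cxcr2 were called. Leaving out 1 library gave 0 to 2385 genes, 0 to 10 ligands and 0 to 9 receptors. The lowest values came without DKO libraries: edgeR called 39, 2 and 0 genes without DKO1, DKO2 and DKO3 (3618, 2971 and 3017 at an unadjusted p under 0.05), and 0 ligands (12, 15 and 12) and 0 receptors (11, 10 and 10), while the highest came without TKO1. With the replicate number as a block 295 genes, 2 ligands and 3 receptors were called. Of the 9 calls, this lost Ccl2, Cxcl1, Cxcl12, Ccr1 and Ccr2 (adjusted p = 0.0566, 0.0687, 0.0785, 0.0862 and 0.0517 by edgeR), and it added Ccl7. In the labels the replicate numbers share sex (replicate 1 male, the others female) but no animal, litter or batch. Deviations of same-numbered DKO and TKO libraries correlated at -0.01, 0.01 and -0.02, and not every library correlated best with its own number. With 3 libraries a group and near-zero counts in DKO, folds of receptor genes have wide counting intervals.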
